A study of Mus musculus with 8 samples.

Results

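Respiratory complex I was examined through 43 genes out of 19938 measured on mouse Gene ST 1.0 arrays. They are the genes whose platform symbol starts with Ndufa (Ndufab and Ndufaf included), Ndufb, Ndufc, Ndufs or Ndufv, each represented by the single-gene probe set that was brightest on average across the 8 arrays. Of these, 36 are subunits or genes named as such, and 7 are Ndufaf assembly factors. Subunits were set beside assembly factors in 4 hemophagocyte arrays and 4 arrays of resting splenic macrophages. Hemophagocytes are macrophages that have engulfed blood cells. All mice were wild-type C57Bl/6j males, 8 weeks old. Hemophagocytes came from mice given 4 intraperitoneal doses, on alternate days, of 37.5 ug of the Toll-like receptor 9 agonist CpG1826 with 200 ug of the IL-10 receptor antibody 1B1.3A, and resting macrophages from mice given 200 uL of PBS on the same schedule. From each mouse 20 target cells were laser-captured from a spleen touch preparation and pooled. Nothing in the labels ties an array to particular mice. The p-values therefore measure the spread between these arrays, which may be partly technical, and would be too small if arrays shared a mouse. Treated mice contributed no array of non-engulfing macrophages, so engulfment and treatment cannot be told apart.

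Complex I is the entry point of electrons from NADH into the mitochondrial respiratory chain. Its matrix arm oxidises NADH (the N module) and hands the electrons to ubiquinone (the Q module), and its membrane arm pumps protons, which ATP synthase then uses. A catalytic core is surrounded by accessory subunits, and dedicated assembly factors, which are not part of the finished enzyme, put the modules together. In macrophages complex I is also known as a source of reactive oxygen species during activation. All but a few subunits are encoded in the nucleus. Ndufb1, Ndufb4 and Ndufaf8 were not analysed here.

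The arrays were not uniform. A value was counted as high when it exceeded the gene's median of 8 arrays by over 1 log2 unit. By that measure 0.772% of genes were high on hemophagocyte 3 and 0.797% on hemophagocyte 5, against 0.0652% on hemophagocyte 2 and 0.15% on hemophagocyte 6. The resting arrays had 0.0602%, 0.0802%, 0.0652% and 0.0351% (arrays 3, 4, 5 and 6). Of 15 macrophage markers, 11 had a mean above that of the 1194 olfactory and vomeronasal receptor genes, sensory genes taken as a measure of array background, whose mean was 5.75 on hemophagocyte 3, the lowest, and 5.95 to 6.16 on the other 7 arrays. Cd68, a macrophage lysosomal glycoprotein, reached 9.66 on hemophagocyte 3 and 10.52 on hemophagocyte 5, and kept to 7.21 to 7.50 elsewhere. Lyz2, the macrophage lysozyme, was also high on both, at 9.95 and 9.96, but stood at 5.86 and 6.55 on hemophagocytes 2 and 6, below all resting arrays (7.45 to 8.89). Other macrophage markers had changes of either sign, among them C1qa (0.39), Adgre1 (0.35), Vcam1 (0.03), Csf1r (-0.09), Spic (-0.10) and Cd163 (-0.13). The macrophage list summed to 97.4 to 113.2 on hemophagocyte arrays and to 99.1 to 101.4 on resting arrays. Markers of T cells (41.0 to 42.1 against 41.8 to 42.6), B cells (37.3 to 38.9 against 38.3 to 38.9) and erythroid cells (45.1 to 45.7 against 45.3 to 46.0) had overlapping sums. Those of NK cells were 43.3 to 45.2 against 45.3 to 46.1, of neutrophils 49.7 to 55.1 against 49.4 to 49.8, and of platelets 24.6 to 29.2 against 25.7 to 26.8. Of these markers 0 passed the test, and their part in the results below was not tested.

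No complex I gene passed the test between the groups. Of the 43 genes, 0 were called higher and 0 lower by limma at an adjusted p under 0.05, where 0.01% of all genes were called higher and 0% lower. Before adjustment, p was under 0.05 for 5 subunits with higher values in hemophagocytes (1.53% of all genes) and 1 with lower values (5.05% of all genes). This makes 6 of 43 members in either direction (6.58% of all genes), with 0 of the 7 assembly factors among them. Of the 36 subunits 29 had a log2 change above 0 (80.6%), as had 4 of the 7 assembly factors (57.1%) and 36.1% of all genes. The median log2 change was 0.08 for subunits, 0.02 for assembly factors and -0.04 for all genes. The subunit and assembly factor medians thus differed by 0.07. On single arrays, the median subunit deviation minus the median assembly factor deviation was 0.01, 0.10, 0.06 and 0.02 on hemophagocytes 2, 3, 5 and 6 and 0.01, -0.12, -0.01 and -0.08 on resting arrays 3 to 6. The lowest hemophagocyte and the highest resting array were both at 0.01. Because the genes were chosen with results of these data known, these medians carry no p. In pools of captured cells, a change in the mix of cells and a change in RNA per cell cannot be told apart.

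**Figure D1:**
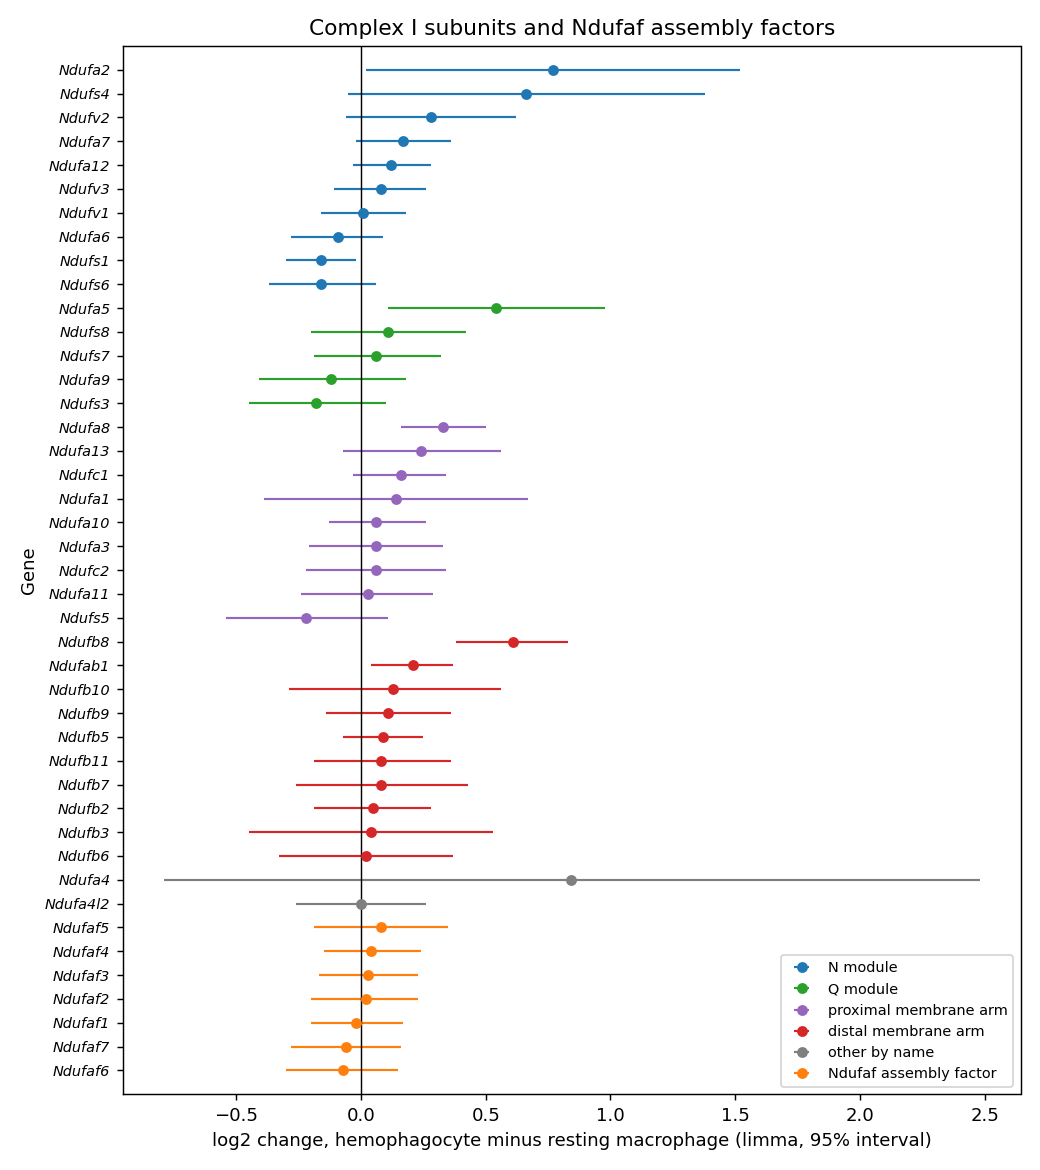
The x axis gives the log2 change, hemophagocyte minus resting macrophage, with its 95% interval from limma (4 arrays a group), and the y axis the 43 genes, coloured by their place in the enzyme. All 10 distal membrane arm genes lie right of 0, and the 7 Ndufaf genes lie within -0.07 to 0.08.

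The number of subunits above 0 was lower without any single hemophagocyte array, at 25 without hemophagocyte 2, 26 without 3, 23 without 5 and 26 without 6. The shares of all genes above 0 were then 32.7%, 41.7%, 37.5% and 35.7%. Without resting arrays 3, 4, 5 and 6 in turn, 29, 27, 27 and 26 subunits lay above 0. Here the shares of all genes were 37.7%, 35.7%, 36.3% and 36.8%. Without hemophagocytes 3 and 5 together, 23 of 36 subunits lay above 0, against 44.9% of all genes, and the subunit median was 0.07. With the array background as a covariate, 23 of 36 lay above 0, against 46% of all genes, and the subunit median was 0.05. This covariate rests largely on hemophagocyte 3, at 5.75 against 5.95 to 6.16 on the other arrays. It also overlaps in part with the group, so values adjusted for it are not free of either. After cyclic loess, which moved the median of all genes to 0.00, 30 of 36 lay above 0, against 50.9%.

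Groups that did not overlap were found in 5 of 43 members (11.6%, against 3.71% of all genes), which were 5 subunits and 0 assembly factors. In 4 subunits (11.1%) every hemophagocyte array lay above every resting array, compared with 0.802% of all genes, and in 1 every hemophagocyte array lay below, compared with 2.9%. The 4 were Ndufb8, Ndufa8, Ndufab1 and Ndufs4, all accessory subunits, and the 1 was Ndufs1 of the catalytic core. The share was much the same in the other respiratory complexes and ATP synthase, with 4 of 39 nuclear subunits (10.3%) separate and higher. The all-gene share of separate and higher genes was 1.32% after quantile normalization and 1.85% after cyclic loess, with 4 members in each.

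Ndufb8 encodes an accessory subunit of the distal membrane arm, and its protein is widely used to monitor assembled complex I. Its hemophagocyte values were 6.54, 6.84, 6.71 and 7.07 on arrays 2, 3, 5 and 6, and its resting values 6.15, 6.13, 6.24 and 6.22 on arrays 3, 4, 5 and 6. The hemophagocyte arrays were all higher, and none of them stood apart from the other 3. The means were 6.79 ± 0.22 and 6.18 ± 0.06 (log2, mean ± SD, n = 4 each), a log2 change of 0.61 (95% interval 0.38 to 0.83), or 1.52-fold. It was 6th of all genes by p (limma adjusted p = 0.42). Under single alternatives the change kept to 0.51 to 0.69 and adjusted p ran from 0.056, without hemophagocyte 2, to 0.96, without hemophagocyte 3.

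Ndufa8, a subunit of the proximal membrane arm on the intermembrane space side, stood at 7.41, 7.39, 7.55 and 7.25 on hemophagocytes 2, 3, 5 and 6. Its resting values were 7.06, 7.03, 7.03 and 7.15 on arrays 3 to 6. Spread was narrow in both groups, at 7.40 ± 0.12 against 7.07 ± 0.05 (n = 4 each). The difference was 0.33 log2 units (95% interval 0.16 to 0.50, limma adjusted p = 0.75). Ndufab1, the mitochondrial acyl carrier protein, which also serves fatty acid synthesis in the organelle, stood at 5.62, 5.75, 5.65 and 5.79 on the hemophagocyte arrays and at 5.59, 5.53, 5.37 and 5.50 on the resting arrays. The closest arrays of the groups were 5.62 and 5.59, and the means differed by 0.21 (95% interval 0.04 to 0.37, limma adjusted p = 0.75). The signal was dim. It lay below the receptor mean of its own array everywhere except on hemophagocyte 3, where both were 5.75. A dimmer probe set of Ndufab1 had overlapping groups and a change of 0.10.

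Ndufs4, an accessory subunit that holds the N module in place and whose loss in mice causes an encephalopathy like Leigh syndrome, owed its size to 1 array. It stood at 6.99, 8.68, 7.11 and 6.90 on hemophagocytes 2, 3, 5 and 6 and at 6.63, 6.87, 6.84 and 6.69 on the resting arrays. Hemophagocyte 3 was far above the rest, while hemophagocyte 6 lay next to the highest resting array. The log2 change of 0.66 (SE 0.32, limma adjusted p = 0.75) was 0.24 without hemophagocyte 3 and 0.07 with the background covariate. Ndufs1, the core subunit with several of the iron-sulfur clusters that conduct electrons, was lower, at 5.53, 5.52, 5.64 and 5.58 on the hemophagocyte arrays against 5.73, 5.68, 5.76 and 5.73 on the resting arrays. Its change was -0.16 (95% interval -0.30 to -0.02, limma adjusted p = 0.75), and all 8 values lay below the receptor mean of their own array.

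**Figure D2:**
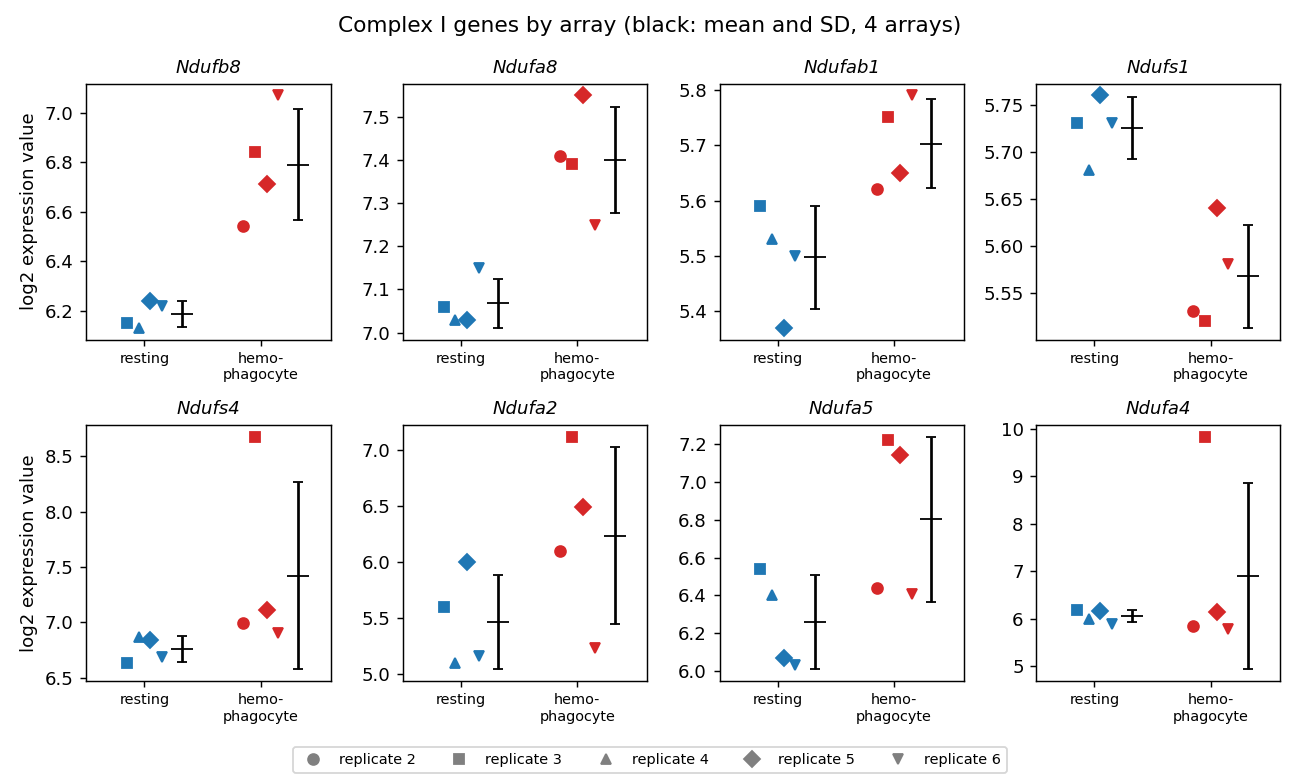
Each panel gives 1 gene, with the log2 expression value on the y axis (scales differ between panels), resting arrays in blue and hemophagocyte arrays in red, marker shape by replicate number, and the mean and SD of 4 arrays in black. In Ndufb8 and Ndufa8 the groups are apart, whereas Ndufs4 and Ndufa4 show 1 high array, hemophagocyte 3, at 8.68 and 9.84.

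The promoters of the 3 separated genes with a searched motif are shown because they stand beside the genes whose groups were separate. Of the separated genes not shown, Ndufab1 had a window without a match to any searched motif, and Ndufs1 had no window. Each runs from 250 bases before to 50 after the gene's start (RefSeq, GRCm38.p6, minus strand in all 3, printed 5′ to 3′ along the gene). They lie at chr19:44555393-44555692 (Ndufb8), chr2:36049289-36049588 (Ndufa8) and chr13:114388045-114388344 (Ndufs4). Capitals mark a match to the YY1 core AANATGGC in Ndufb8 and Ndufs4 and to the NRF1 core in Ndufa8, on either strand.
Ndufb8: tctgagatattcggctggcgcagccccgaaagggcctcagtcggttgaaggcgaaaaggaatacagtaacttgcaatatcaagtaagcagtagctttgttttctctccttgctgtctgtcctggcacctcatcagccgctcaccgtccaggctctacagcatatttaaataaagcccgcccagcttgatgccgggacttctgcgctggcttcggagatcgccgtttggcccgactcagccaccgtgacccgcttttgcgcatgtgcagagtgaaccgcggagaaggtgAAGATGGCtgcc
Ndufa8: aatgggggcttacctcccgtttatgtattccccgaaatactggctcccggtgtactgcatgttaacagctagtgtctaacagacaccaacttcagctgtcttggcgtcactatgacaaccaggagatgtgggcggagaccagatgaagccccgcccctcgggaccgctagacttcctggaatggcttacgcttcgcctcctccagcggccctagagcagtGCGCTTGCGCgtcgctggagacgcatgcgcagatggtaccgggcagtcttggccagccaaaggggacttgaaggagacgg
Ndufs4: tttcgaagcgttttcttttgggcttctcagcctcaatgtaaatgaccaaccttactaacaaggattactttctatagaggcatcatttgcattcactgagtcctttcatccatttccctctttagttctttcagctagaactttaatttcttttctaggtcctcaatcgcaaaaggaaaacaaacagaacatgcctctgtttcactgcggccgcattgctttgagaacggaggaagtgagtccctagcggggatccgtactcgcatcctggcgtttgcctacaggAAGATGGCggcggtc
Promoter windows matched 38 of the 43 genes, and 24 of these held at least 1 of the 3 motifs searched. Ndufs6 held both NRF1 and YY1 matches and Ndufs8 both ETS and YY1 matches, and no matches of different motifs overlapped in position. NRF1 and the ETS family member GABP are regulators of nuclear genes for the respiratory chain, and YY1 is a further factor at such promoters. The YY1 core occurred in 12 of 32 subunits (37.5%) and 1 of 6 assembly factors (16.7%), compared with 6.96% of all genes with a window. The NRF1 core occurred in 6 of 32 subunits (18.8%) and 2 of 6 assembly factors (33.3%), compared with 5.19%, and the ETS core CCGGAAG in 4 of 32 (12.5%) and 1 of 6 (16.7%), compared with 9.93%. Genes with and without a YY1 match had median log2 changes of 0.09 (13 genes) and 0.06 (25 genes), and those with and without an NRF1 match 0.04 (8) and 0.08 (30). The letters ATGG of the YY1 core can also belong to a start codon within the window, which was not examined.

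Among the 10 genes of the N module, 7 had changes above 0 and the median was 0.10. Ndufa2, a small accessory subunit of this module, stood at 6.10, 7.12, 6.49 and 5.23 on hemophagocytes 2, 3, 5 and 6 and at 5.60, 5.10, 6.00 and 5.16 on the resting arrays. The groups overlapped, with hemophagocyte 6 among the lowest arrays, and the change of 0.77 (SE 0.34, limma adjusted p = 0.75) was 0.47 without hemophagocyte 3, 0.20 without hemophagocytes 3 and 5 and 0.31 with the background covariate. Ndufv2, a core iron-sulfur subunit beside the NADH site, stood at 6.14, 6.64, 5.88 and 5.92 on the same hemophagocytes and at 5.94, 5.79, 6.02 and 5.70 on the resting arrays. Hemophagocyte 3 was again the highest, and the change of 0.28 (SE 0.15, limma adjusted p = 0.75) was 0.12 without it and -0.01 with the background covariate. Ndufv1, which binds NADH and the flavin, did not share this pattern, at 6.31 to 6.49 in both groups (change 0.01, 95% interval -0.16 to 0.18). Ndufa7 had a change of 0.17, Ndufa12 of 0.12, Ndufv3 of 0.08, Ndufa6 of -0.09 and Ndufs6 of -0.16.

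Of the Q module 5 genes were measured, with a median change of 0.06 and 3 of them above 0. Ndufa5, an accessory subunit of this module, stood at 6.44, 7.22, 7.14 and 6.41 on hemophagocytes 2, 3, 5 and 6 and at 6.54, 6.40, 6.07 and 6.03 on the resting arrays. Hemophagocytes 3 and 5 were high, and the other two fell within the resting range. Its change was 0.54 (95% interval 0.11 to 0.98, limma adjusted p = 0.75), and 0.17 without hemophagocytes 3 and 5 or 0.31 with the background covariate. The core subunits around the ubiquinone site had changes of 0.11 (Ndufs8), 0.06 (Ndufs7) and -0.18 (Ndufs3, with -0.22 in its dimmer probe set), and the accessory Ndufa9 had -0.12. Over both modules the catalytic core had a median change of 0.04, with 4 of 6 genes above 0, and the accessory subunits of the whole enzyme 0.09, with 24 of 28 above 0. The difference between core and accessory subunits was not tested.

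In the proximal membrane arm 8 of 9 genes had changes above 0, with a median of 0.06. Beside Ndufa8, Ndufa13, also called GRIM-19 and first known from interferon-induced cell death, stood at 6.35, 6.62, 5.81 and 6.38 on hemophagocytes 2, 3, 5 and 6, while its resting values were 5.97, 6.03, 6.05 and 6.13. Here hemophagocyte 5 was the lowest of all 8, and the change was 0.24 (SE 0.14, limma adjusted p = 0.75). It was 0.13 without hemophagocyte 3, 0.40 without hemophagocyte 5 and 0.05 with the background covariate. Ndufa1 reached 7.99 on hemophagocyte 5 and stood at 6.67 to 7.32 on all others (change 0.14). Ndufc1 had a change of 0.16, Ndufa10, Ndufa3 and Ndufc2 of 0.06 each, Ndufa11 of 0.03, and Ndufs5 of -0.22.

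All 10 measured genes of the distal membrane arm had changes above 0, from 0.02 to 0.61, with a median of 0.09. The count fell to 7 of 10 without hemophagocyte 5 and to 8 without hemophagocyte 2, 3 or 6. Each omission turned the sign of 2 or 3 of these small changes, in genes that partly differed with the array left out. Only Ndufb8, Ndufab1 and Ndufb5 stayed above 0 without any single hemophagocyte array. Apart from Ndufb8 and Ndufab1, Ndufb10 had a change of 0.13, Ndufb9 of 0.11, Ndufb5 of 0.09, Ndufb7 and Ndufb11 of 0.08, Ndufb2 of 0.05, Ndufb3 of 0.04 and Ndufb6 of 0.02. Single arrays stood out here too, with Ndufb10 at 6.65 on hemophagocyte 3 and 5.55 to 5.97 elsewhere, and Ndufb3 at 6.32 on hemophagocyte 5 and 5.19 to 5.88 elsewhere. These high arrays differed from gene to gene.

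Ndufa4 and Ndufa4l2 were taken by name. Ndufa4 is now placed in cytochrome c oxidase, and Ndufa4l2 is a related gene induced in hypoxia. Ndufa4 stood at 9.84 on hemophagocyte 3 and at 5.85, 6.13 and 5.78 on hemophagocytes 2, 5 and 6, with resting arrays at 6.18, 6.00, 6.15 and 5.89. The gap to every other array exceeded 3 log2 units on 1 array alone, and the change of 0.84 (SE 0.74, limma adjusted p = 0.81) became -0.14 without it. Ndufa4l2 stood at 6.39 to 6.61 in hemophagocytes and 6.29 to 6.85 in resting macrophages. Without both genes the subunit median was still 0.08.

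Of the 7 Ndufaf assembly factors, 0 were more than 0.5 log2 units above their own median on any array. Their changes ran from -0.07 to 0.08, their 95% intervals together spanned -0.30 to 0.35, and the smallest adjusted p was 0.88 (limma). Ndufaf5, which hydroxylates the core subunit Ndufs7, stood at 5.02, 5.65, 5.34 and 5.11 on hemophagocytes 2, 3, 5 and 6 and at 5.11, 5.22, 5.20 and 5.25 on resting arrays (change 0.08). Hemophagocyte 3 was the highest of the 8. Ndufaf6, needed for early membrane arm assembly, stood at 5.16, 4.97, 5.32 and 4.92 against 5.09, 5.30, 5.25 and 5.03 (change -0.07), and the groups overlapped throughout. Ndufaf7, a protein methyltransferase, stood at 6.26, 5.90, 5.91 and 5.91 against 5.96, 6.07, 5.99 and 6.22 (change -0.06). Ndufaf3 and Ndufaf4, partners in building the Q module, had changes of 0.03 and 0.04, Ndufaf2, which acts as the N module is attached, 0.02, and Ndufaf1, of the intermediate assembly complex in the membrane, -0.02. Ndufaf4, Ndufaf5 and Ndufaf6 lay below the receptor mean on all 8 arrays, as did 4 subunits (Ndufa6, Ndufb5, Ndufb6 and Ndufs1), and whether these transcripts were detected cannot be told. Above it on all 8 arrays were 19 of the 43 members, among them Ndufaf3 as the only assembly factor. At or above the median level of all genes were 22 of the 36 subunits and 1 assembly factor. The small changes of the assembly factors were thus read mostly in dim probe sets.

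Hemophagocyte arrays also differed more among themselves. The median SD over the hemophagocyte arrays was 0.25 for subunits, 0.15 for assembly factors and 0.13 for all genes, and over the resting arrays 0.12, 0.12 and 0.11. In 28 of 36 subunits (77.8%) the hemophagocyte arrays varied more than the resting arrays, as they did in 5 of 7 assembly factors and in 60.3% of all genes. Hemophagocyte 3 was the highest of the 8 arrays in 11 subunits (30.6%, against 8.95% of all genes). The share was similar in the assembly factors (28.6%) and in the nuclear subunits of complexes II to V (28.2%). Hemophagocytes 2, 5 and 6 were the highest in 5, 5 and 6 complex I subunits (13.9%, 13.9% and 16.7%). Over all genes these shares were 15.3%, 9.85% and 9.65%. On hemophagocyte 3, 3 subunits were over 1 log2 unit above their own median (Ndufa4, Ndufs4 and Ndufa2; 8.33%, against 0.772% of all genes), and 0 were on any other array, hemophagocyte 5 included. On hemophagocyte 3, 3 of 15 macrophage and 2 of 8 neutrophil markers were also over 1 log2 unit above their median, and on hemophagocyte 5, 5 and 1, with 1 of 4 platelet markers on each. Their part in the subunit values was not tested.

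**Figure D3:**
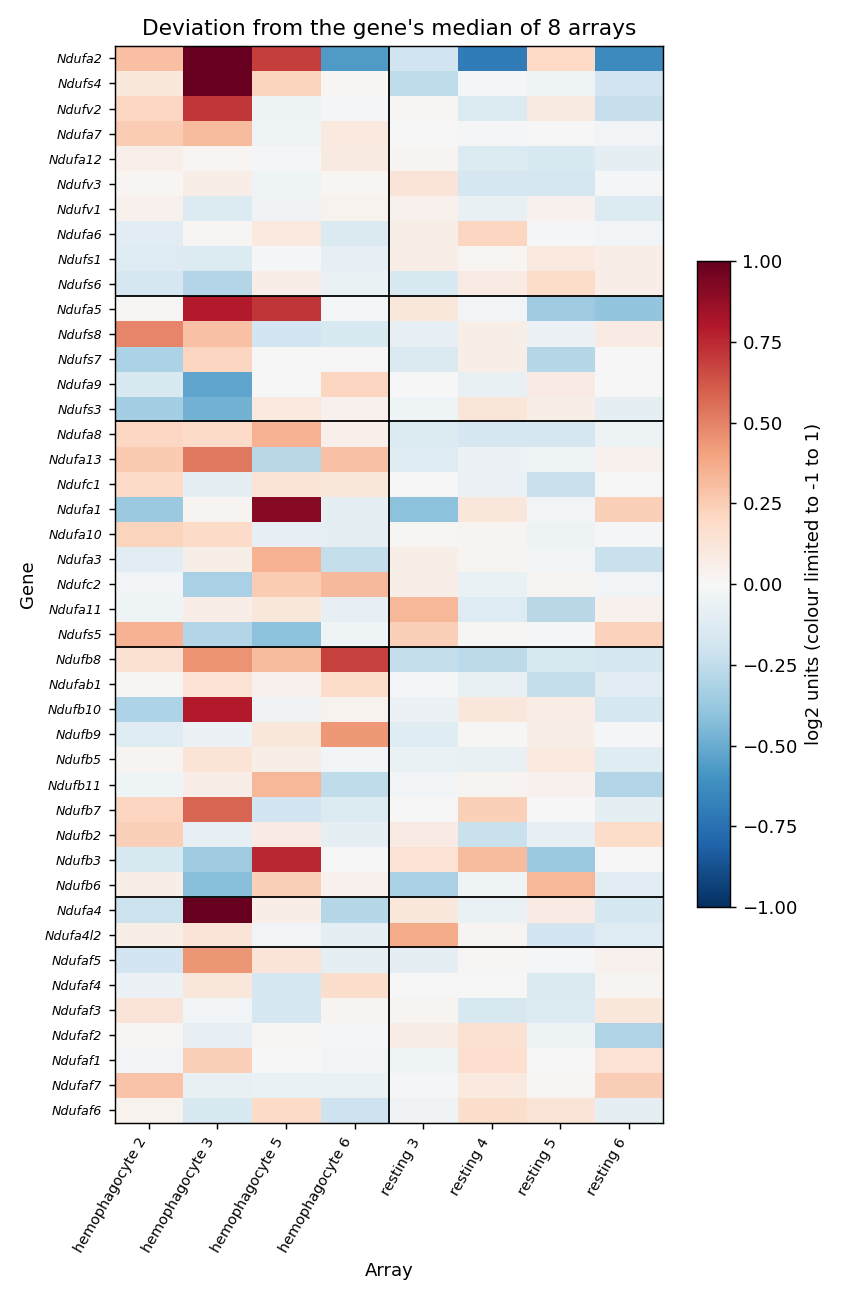
Rows are the 43 genes, with lines between the N module, Q module, proximal arm, distal arm, genes taken by name and Ndufaf factors, and columns are the 8 arrays, where colour gives the deviation in log2 units from the gene's own median. The darkest red cells are on hemophagocyte 3 (Ndufa2, Ndufs4, Ndufa4), and the 7 Ndufaf rows at the bottom stay pale.

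Other assembly factors of complex I were taken as a separate list. Of 14 listed 13 were measured, 0 passed, and 6 had changes above 0, with a median of -0.01. Tmem126a, a membrane assembly factor, had a change of 0.26 and Acad9, an acyl-CoA dehydrogenase that doubles as an assembly factor, one of -0.19 (limma adjusted p = 0.75 for both). Tmem186 stood at -0.13, Timmdc1 at 0.14 and Ecsit, which also takes part in Toll-like receptor signalling, at -0.07. Of the 7 mitochondrially encoded subunits only ND3 was analysed here. Its values were 10.11, 9.51, 7.47 and 9.21 on hemophagocytes 2, 3, 5 and 6 and 8.59, 7.57, 7.68 and 7.37 on resting arrays. The order of hemophagocyte arrays was unlike that of the nuclear subunits, since hemophagocyte 2 was highest and hemophagocyte 5 lay in the resting range. The change was 1.27 (SE 0.47, limma adjusted p = 0.75), and a dimmer ND3 probe set gave 0.31.

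The other respiratory complexes and ATP synthase (complexes II to V) served as a comparison. Of their 39 measured nuclear subunits 0 passed, 28 had changes above 0 and the median was 0.15. That median was 0.10 without hemophagocyte 3 or without hemophagocyte 5, and 0.05 without both, where the complex I subunit median was 0.07. Changes over 0.3 log2 units in size were found in 6 of the 36 complex I subunits (16.7%), or 5 of 34 without Ndufa4 and Ndufa4l2. They were found in 0 of the 7 Ndufaf genes, in 3.2% of all genes and in 15 of the 39 subunits of complexes II to V (38.5%). The 4 smallest p belonged to Cox6c (2.63) and Cox6a1 (2.08) of cytochrome c oxidase and to Atp5mpl (1.37) and Atp5md (2.05) of ATP synthase, each with limma adjusted p = 0.75. Among them only Cox6c had groups that did not overlap. Cox6a1 stood at 6.35 on hemophagocyte 2, within its resting range of 5.93 to 6.77. On hemophagocyte 6, Atp5mpl stood at 7.55 (resting 6.72 to 7.88) and Atp5md at 5.60 (resting 5.48 to 5.76). On hemophagocyte 5, 9 subunits of complexes II to V were more than 1 log2 unit above their median and 0 of complex I, and on hemophagocyte 3, 7 and 3. The 3 include Ndufa4, now placed in cytochrome c oxidase, and were 2 without it. The difference between the lists was not tested. Regulators of mitochondrial biogenesis and mass markers, 16 genes, had a median change of 0.02, with 8 above 0 and 0 past the test. The largest change was 1.03 in Hspd1, a mitochondrial chaperone (limma adjusted p = 0.78). In this list 1 gene was over 1 log2 unit above its own median on hemophagocyte 3, and 0 were on any other array. The 4 of smallest p were Tfam, which packages mitochondrial DNA (0.15), Pprc1 (-0.14), Yy1 (-0.18) and Tfb2m (-0.12).

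**Figure D4:**
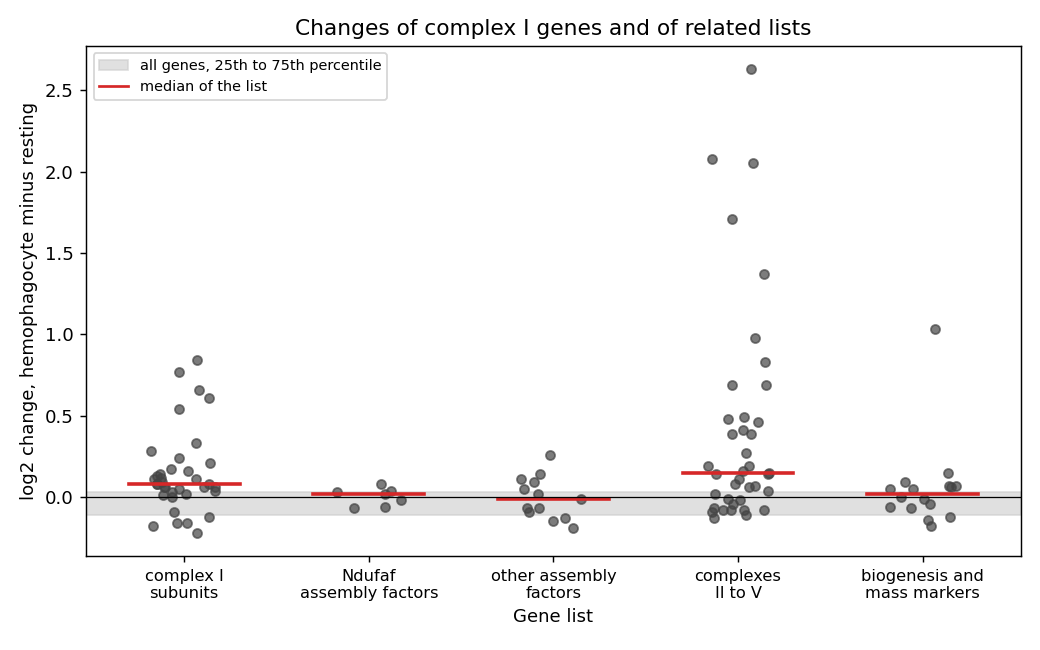
Points are genes, the y axis is the log2 change (hemophagocyte minus resting macrophage), red lines are list medians, and the grey band is the interquartile range of all genes (-0.11 to 0.03). The points of complex I subunits reach 0.84 in Ndufa4, which was taken by name, and 0.77 in Ndufa2. Subunits of complexes II to V reach 2.63, while the Ndufaf genes stay between -0.07 and 0.08.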

How the data were processed

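Deposited values are log2 expression levels, which their range bears out, with 1 value for each probe set on each array. Per the submitters' processing notes the authors used Affymetrix Expression Console 1.1, and per the labels' protocols RNA was amplified (WT-Ovation One-Direct). Background correction, probe summary and normalization steps were not given in the sources used here. Of 35556 probe sets, 21789 had 1 gene symbol, 1621 several and 12146 were not listed, and only the first were used, which gave 19938 genes and 48 probe sets for the 43 members. No dim probe set was filtered out. All genes were fitted with limma 3.58.1 in R 4.3.3 (lmFit, eBayes, 4 arrays a group from the sample titles, without a block). Adjusted p follows Benjamini and Hochberg across the 19938 genes, and calls needed a value under 0.05. The scripts were tested on simulated data. Precision is limited by the 4 arrays in each group.

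The members and lists were chosen with earlier results of these data known. Values on every array are given for members past the threshold, those whose groups do not overlap, the 8 largest changes, those with a hemophagocyte range over 2 log2 units, and the 3 Ndufaf genes of smallest p. Cd68 and the other macrophage markers, Hspd1, Ndufb10, Ndufb3, Ndufa1 and Ndufv1 were chosen for description after their values were seen, as was Ecsit. Alternatives were 3 normalizations, a filter on dim genes, a trended robust prior, weighting of arrays, averaging of a gene's probe sets, omission of Ndufa4 and Ndufa4l2, each array left out, hemophagocytes 3 and 5 left out, the replicate number as a block, and a background covariate.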

Additional observations from a re-analysis of the deposited data

Results flagged for a closer look

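In 4 of 86 groups of 4 arrays (43 genes, each in both groups), or 4.65%, 1 array lay far from the other 3. The measure looks for an array on either side, and chance alone meets it in about 1 in 20 groups. Ndufa4 stood at 9.84 on hemophagocyte 3, against 5.78 to 6.13 on the other hemophagocytes. Ndufs4 stood at 8.68 on hemophagocyte 3, against 6.90 to 7.11. Ndufaf1 stood at 6.35 on hemophagocyte 3, against 6.09 to 6.12, and Ndufaf7 at 6.26 on hemophagocyte 2, against 5.90 to 5.91. All 4 were high values on hemophagocyte arrays, 3 of them on hemophagocyte 3, and 0 were found on resting arrays.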

How the results depend on the processing

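Under every alternative 0 complex I genes were called. The number of genes called, 2 with all arrays, was 1 after median centring, cyclic loess, the trended robust prior and the background covariate, and 1 to 11 when single arrays were left out (11 without hemophagocyte 2). The subunit median of 0.08 was 0.13 after cyclic loess, 0.05 with the background covariate and 0.07 to 0.11 with single arrays left out, and the assembly factor median of 0.02 was -0.03 to 0.05. Their difference of 0.07 was 0.04 without hemophagocytes 3 and 5 and 0.04 to 0.11 with single arrays left out. Members with separate groups, 5 with all arrays, numbered 3 among the 23 members at or above the median level (3.91% of all genes), 12 without hemophagocytes 3 and 5 (where 12.8% of all genes separated, since fewer arrays are compared), and 5 to 7 with single arrays left out (5.58% to 8.82% of all genes). With the replicate number as a block, 7 genes were called, the subunit median was 0.12 and Ndufb8 had a change of 0.67 (limma adjusted p = 0.25). Whether the numbers pair the arrays cannot be told from the values. Deviations from the group means correlated across genes at 0.174, 0.066 and 0.118 for same-numbered arrays 3, 5 and 6. Arrays of unlike number correlated at -0.242 to 0.184.

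Of 295 changes of 17 named genes under alternatives, 24 turned sign, 20 of them in Ndufaf genes, whose changes are near 0. Without hemophagocytes 3 and 5, Ndufa4 was -0.24, Ndufaf5 -0.13 and Ndufaf7 0.03. With the background covariate, Ndufa4 was -0.65, Ndufaf5 -0.05, Ndufaf3, Ndufaf4 and Ndufv2 -0.01, and Ndufaf6 0.02. Ndufaf1 was 0.01 after quantile normalization and median centring, 0.02 after cyclic loess and 0.04 with the block, where Ndufaf3 was -0.06. With single arrays left out, Ndufa4 ranged from -0.14 to 1.22, Ndufaf1 from -0.08 to 0.02, Ndufaf2 from -0.07 to 0.08, Ndufaf3 from -0.02 to 0.08, Ndufaf4 from -0.01 to 0.10 and Ndufaf5 from -0.04 to 0.17. The cause was not tested. With 7 members below the receptor mean on all arrays, dim signal limits what can be seen in them.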

Other observations

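Probe sets that the annotation gives to several genes were left out above, and 3 of them bear on complex I. Both probe sets shared by Ndufb4 and its copy Ndufb4b had higher means in hemophagocytes, with differences of 0.11 and 0.21 log2 units. The probe set shared by Ndufs5 and the pseudogene Ndufs5-ps had a difference of 0.22, opposite in sign to the -0.22 of the Ndufs5 probe set. Of the 5 members with a second single-gene probe set, all 5 had the same sign in both, with 0.03 and 0.03 for Ndufa11, 0.08 and 0.23 for Ndufb11, and 0.16 and 0.30 for Ndufc1.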
